A study of Mus musculus with 12 samples.

Results

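The 42 genes described here are interferon-stimulated genes and genes of class I antigen presentation, taken from 18604 genes measured in mouse hearts. They were chosen by gene symbol and fall into 5 roles: 8 sensors and transcription factors, 13 antiviral effectors, 10 genes of the ISG15 system and related interferon-stimulated genes, 6 interferon-inducible GTPases and 5 genes of antigen presentation. All 42 were present in each of the 4 deposited tables and passed the filter on low values in every comparison. The lowest read number of any of them in any library was 44, for Zbp1.

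The hearts came from male C57Bl/6J mice, 12 weeks old. One diet contained branched-chain amino acids (BCAA: leucine, isoleucine and valine) and served as the control diet, and the other, the BCAA-free diet, lacked them. Feeding of either diet started 4 days before surgery and went on until the hearts were taken 1 week after it. Each mouse had sham surgery or TAC (transverse aortic constriction), in which a tie around the aortic arch raises the pressure against which the left ventricle pumps. Crossing the 2 diets with the 2 operations gave 4 groups of 3 libraries of polyadenylated RNA. Nothing in the labels says that the 3 libraries of a group came from separate animals. The p-values below therefore measure only how far these libraries spread, and that spread could be technical.

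Libraries held 74206246 to 110452636 reads. The lowest of 8 cardiomyocyte markers, Ryr2, had at least 78898 normalized reads in every library, so markers of the labelled tissue were present throughout. The short structured RNAs Rn7sk, Rmrp and Rpph1, which carry no stable poly(A) tail, together reached 115.5 CPM (counts scaled to library size) in control diet sham 2, 63.6 and 76.1 in BCAA-free TAC 1 and 3, and 19.3 in control diet TAC 3, against 2.06 to 7.79 elsewhere. Results for the 42 genes were therefore also computed without these 4 libraries, each comparison leaving out those of them that it held. Values given per library are normalized reads, that is, reads divided by a size factor set jointly over the 12 libraries, and are listed in the order of libraries 1, 2 and 3 of a group. Changes were computed within the deposited table of each pair of groups, which has its own scaling, so ratios of the printed values can differ slightly from them. They are log2 differences between group means ± SE, and a gene is said to rise or fall, or to be called, where its limma p-value, adjusted over all genes tested in that comparison, was below 0.05. Positions are those of GRCm38.

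Interferons are secreted proteins that put cells into an antiviral state. Type I interferons act through their shared receptor and the kinases JAK1 and TYK2 on a complex, with STAT2 and IRF9 among its parts, that binds the interferon-stimulated response element (ISRE). Interferon gamma acts on genes that carry the gamma-activated site (GAS). The genes so induced code for sensors of foreign nucleic acid, for proteins that block viral entry, translation and release, and for the machinery that cuts, transports and displays peptides on class I molecules. In the heart the programme is best known from viral myocarditis and from macrophages after infarction, and many of its genes also have a basal level in endothelial and other resident cells.

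Promoter windows from RefSeq (GRCm38.p6, 250 bases before to 50 after the gene's start) were at hand for 33 of the 42 genes. GAAA, any 2 bases and GAAA again, read on either strand, served as the ISRE, and TTC, any 3 bases and GAA, which reads alike on both strands, as the GAS, and matches of the same or of both motifs may overlap. A gene can have several windows, 32851 for 27025 gene symbols, and was counted where any of them held a match. ISRE letters lay in a window of 19 of 33 genes (57.6%), against 3.99% of the 27025 symbols and 3.82% of the 12424 of these measured in the hearts. GAS letters lay in 9 of 33 (27.3%), against 9.55% and 8.35%. For 5 genes both were found and for 10 neither. ISRE letters were found for 14 of the 24 genes with a window that were lower on the BCAA-free diet in TAC hearts (58.3%). Of the 9 genes not called there, 5 had them (55.6%). GAS letters were found for 6 of the 24 (25%) and 3 of the 9 (33.3%). By role, ISRE letters were found for 5 of 5 GTPase genes, 8 of 11 antiviral effectors, 4 of 7 sensors and transcription factors, and 1 of 5 in each of the ISG15 and antigen presentation groups. A match is a run of letters and no measured binding site, and a window without one says only that these letters are not in it.

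The following 6 windows are shown because of the results of their genes below. Isg15, Ifit1, Oas1a and Bst2 were among the genes with the strongest evidence of a diet difference, and B2m had the highest level. Irf1 was the single gene of the 42 with a positive estimate for diet in TAC hearts. Each stretch is the 250 bases before the RefSeq start, 5′ to 3′ in the gene's direction, with ISRE and GAS letters in capitals.
Isg15 (chr4:156200819-156201068, minus strand): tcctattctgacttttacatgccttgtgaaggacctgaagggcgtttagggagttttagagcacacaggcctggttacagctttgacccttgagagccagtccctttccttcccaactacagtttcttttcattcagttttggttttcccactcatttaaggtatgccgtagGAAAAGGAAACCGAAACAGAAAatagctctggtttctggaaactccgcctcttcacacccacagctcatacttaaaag
Ifit1 (chr19:34640639-34640888, plus strand): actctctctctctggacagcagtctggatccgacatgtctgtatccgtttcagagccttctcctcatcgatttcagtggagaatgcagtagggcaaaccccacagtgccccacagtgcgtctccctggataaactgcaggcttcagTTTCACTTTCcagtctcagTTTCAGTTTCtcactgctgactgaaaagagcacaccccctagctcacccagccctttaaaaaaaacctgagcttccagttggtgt
Oas1a (chr5:120907526-120907775, minus strand): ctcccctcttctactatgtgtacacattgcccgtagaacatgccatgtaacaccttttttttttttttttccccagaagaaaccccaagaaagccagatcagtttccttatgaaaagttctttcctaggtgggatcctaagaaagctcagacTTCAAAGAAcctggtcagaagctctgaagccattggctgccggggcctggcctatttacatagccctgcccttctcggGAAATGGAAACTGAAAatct
Bst2 (chr8:71537473-71537722, minus strand): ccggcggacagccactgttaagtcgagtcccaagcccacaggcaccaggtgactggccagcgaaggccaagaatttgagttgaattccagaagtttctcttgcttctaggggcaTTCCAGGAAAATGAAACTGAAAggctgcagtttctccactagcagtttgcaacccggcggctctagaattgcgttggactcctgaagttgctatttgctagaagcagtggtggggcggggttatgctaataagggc
B2m (chr2:122147437-122147686, plus strand): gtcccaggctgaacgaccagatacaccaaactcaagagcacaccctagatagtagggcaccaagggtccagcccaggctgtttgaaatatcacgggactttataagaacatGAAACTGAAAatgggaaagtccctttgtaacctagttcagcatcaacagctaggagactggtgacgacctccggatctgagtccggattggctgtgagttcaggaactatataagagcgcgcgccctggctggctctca
Irf1 (chr11:53769764-53770013, plus strand): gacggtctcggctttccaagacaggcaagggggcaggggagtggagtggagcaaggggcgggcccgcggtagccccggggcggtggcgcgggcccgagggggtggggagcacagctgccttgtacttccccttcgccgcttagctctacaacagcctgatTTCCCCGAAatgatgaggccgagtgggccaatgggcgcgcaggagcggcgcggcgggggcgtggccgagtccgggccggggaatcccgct
Isg15 carries 3 overlapping ISRE matches, the first starting 78 bases before the gene's start. In Bst2 a GAS match runs into a pair of overlapping ISRE matches, while in Oas1a the GAS match lies apart from them. B2m has a single ISRE match at 139 bases before the start, and Irf1 has GAS letters alone.

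**Figure D1:**
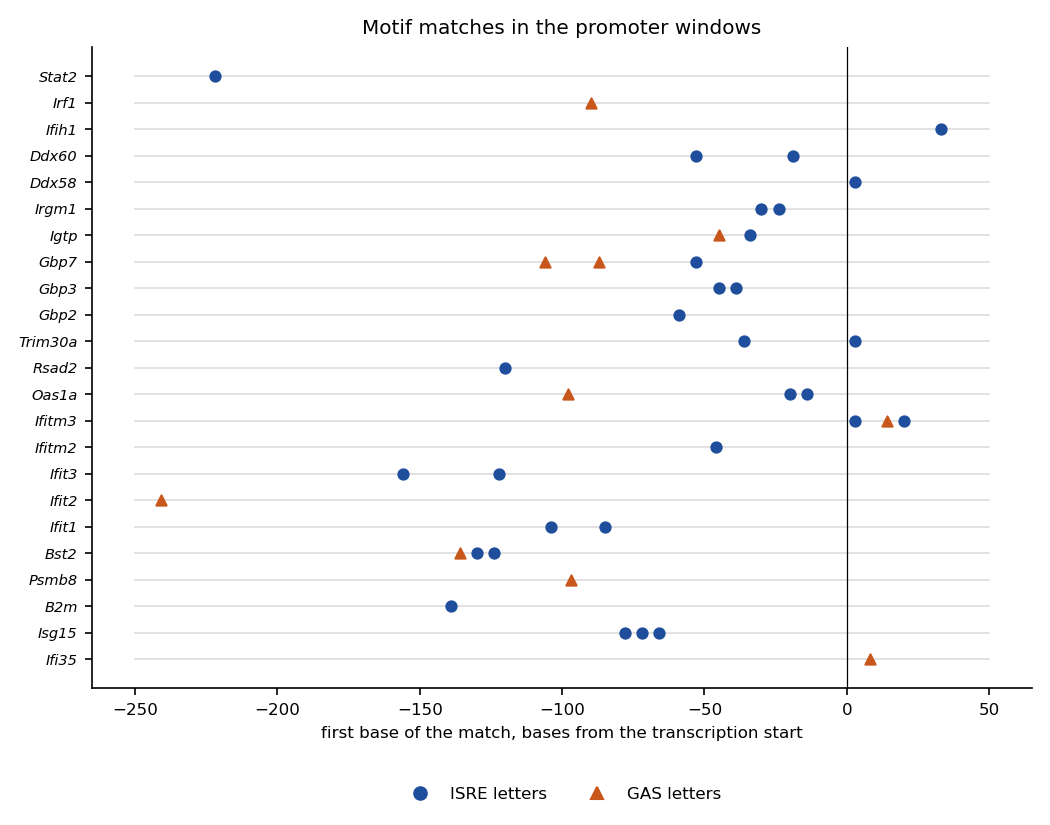
Positions of ISRE letters (circles) and GAS letters (triangles) in the RefSeq windows of the 23 genes with a match, as bases from the transcription start. Isg15 is the gene with 3 ISRE matches, and Irf1, Ifit2, Psmb8 and Ifi35 have GAS letters alone.

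Per kilobase of exon, B2m stood highest of the 42 genes, with a mean over the 12 libraries of 16397 normalized reads, followed by Ifitm3 with 7294, Ifitm2 with 5349.6, H2-K1 with 3664 and Bst2 with 1675. Zbp1, at 30.3, and Mx2, at 39, stood lowest. The highest library exceeded the lowest by 1.45 times for Ifi35 and by 6.01 times for Zbp1, which are the ends of the range.

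The libraries of the 2 diets took opposite ends of that range. For all 42 genes the highest of the 12 libraries was on the control diet, in 33 a TAC library and in 9 a sham library, and for all 42 the lowest was on the BCAA-free diet, in 31 a sham and in 11 a TAC library. Of the 17493 genes tested over the 12 libraries the highest library was on the control diet in 59.2% and the lowest on the BCAA-free diet in 38.2%. In 30 of the 42 genes every control diet TAC library exceeded all 6 BCAA-free libraries, as in 16.3% of all genes. In 13 genes all 6 control diet libraries did, as in 2.53% of all genes: Ifih1, Ddx58, Ifit1, Mx2, Oas2, Bst2, Cmpk2, Trim30a, Isg15, Xaf1, Rtp4, Ifi27 and Ifi44. The group mean of log2 values was highest in control diet TAC for 36 genes and lowest in BCAA-free sham for 32 and in BCAA-free TAC for 10. Shares of all genes for this order of group means are not given here.

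**Figure D2:**
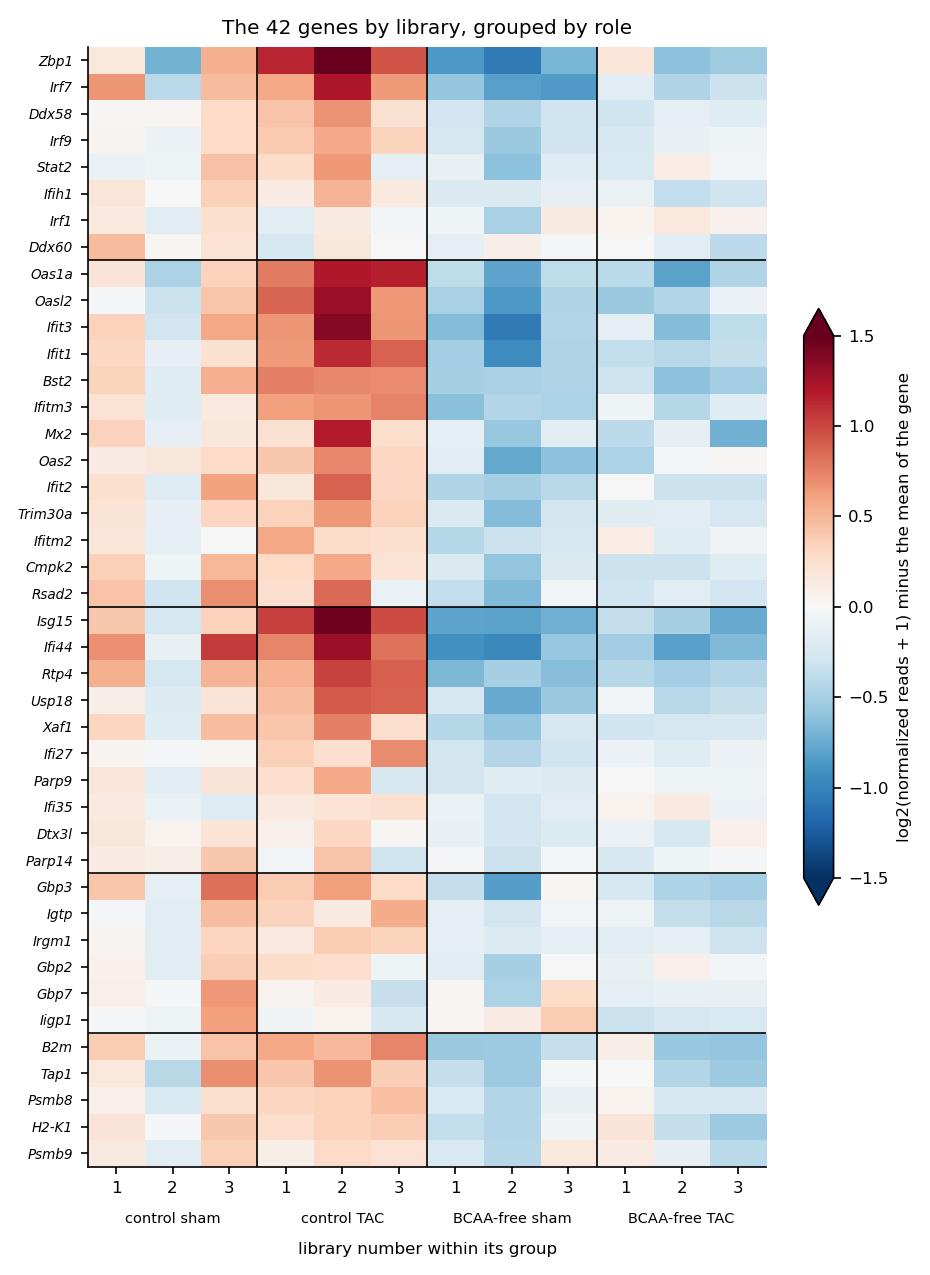
Each cell is log2(normalized reads + 1) of a gene in a library minus the mean of that gene over the 12 libraries, with genes grouped by role and libraries by group. The control diet TAC columns are mostly red and the BCAA-free columns mostly blue, while Irf1, Gbp7 and Iigp1 show little of that pattern.

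Libraries of 1 group also differed among themselves, and most of the 42 genes moved together when they did. Control diet sham 2 had the lowest value of its group in 38 of 42 genes, against 33.1% of all genes, and control diet sham 3 the highest in 32, against 31.8%. Control diet TAC 2 was the highest of its group in 32 genes, against 35.1% of all genes, and the highest of all 12 libraries in 25. BCAA-free sham 2 was the lowest of its group in 32 genes, against 35.4% of all genes, and the lowest of all 12 in 26. Shares of all genes for single libraries among the 12 are not given here. Control diet sham 2 is also the library with the most Rn7sk, Rmrp and Rpph1, and the part of that in its low values was not tested.

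In TAC hearts, 30 of the 42 genes were lower on the BCAA-free than on the control diet and 0 were higher. Of all 18039 genes tested 10.5% fell and 6.23% rose. The median change of the 42 was -0.63, beside 0.022 over all genes, and in 31 genes the 3 BCAA-free libraries all lay below the 3 control diet libraries, which was so for 19.2% of all genes, while 17% had all 3 above. Isg15, a ubiquitin-like protein that is joined to other proteins during infection, fell by 1.69, the largest of these changes, to 0.309 of its control diet level. Leaving out 1 library at a time gave 20 to 32 called genes, with 20 without BCAA-free TAC 2 or 3, and 18 of the 30 were called each time. The fit without the libraries rich in structured RNAs kept a single BCAA-free TAC library, so its calls are not counted here. Of 12 macrophage markers 8 fell in the same comparison, with values given further on, and their part in the result was not tested. In whole-heart RNA fewer cells of a type and less RNA per cell cannot be told apart.

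In sham hearts the change had the same sign in all 42 genes, but fewer passed the test. The BCAA-free diet went with lower levels of 9 genes and higher levels of 0, and of all 17862 genes tested 2.27% fell and 1.27% rose. The 9 were Ifitm3, Ifi27, Isg15, Ddx58, Ifit1, Oas2, Dtx3l, Ifi44 and B2m. The median change of the 42 was -0.47, beside 0.0019 over all genes, and the groups did not overlap in 27 genes, all lower, against 12.9% lower and 13.2% higher over all genes. The count hung on single libraries, being 26 without control diet sham 2, 3 without control diet sham 1, 0 without control diet sham 3, 1 without BCAA-free sham 1 and 0 without BCAA-free sham 2 or 3. None of the 9 was called in every fit with a library left out.

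The diet comparisons in sham and in TAC hearts share no library. Ddx58, Ifit1, Oas2, Ifitm3, Isg15, Ifi27, Ifi44 and B2m were lower in both, which is 8 of the 9 called in sham hearts and 8 of the 30 called in TAC hearts. Of the 17529 genes tested in both comparisons 1.61% were called lower in both. Groups that did not overlap, with the BCAA-free libraries lower, were found in both comparisons for 23 of the 42 genes and for 7.03% of all genes. For 31 of 42 the estimate was lower in TAC than in sham hearts, as for 46.9% of all genes.

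**Figure D3:**
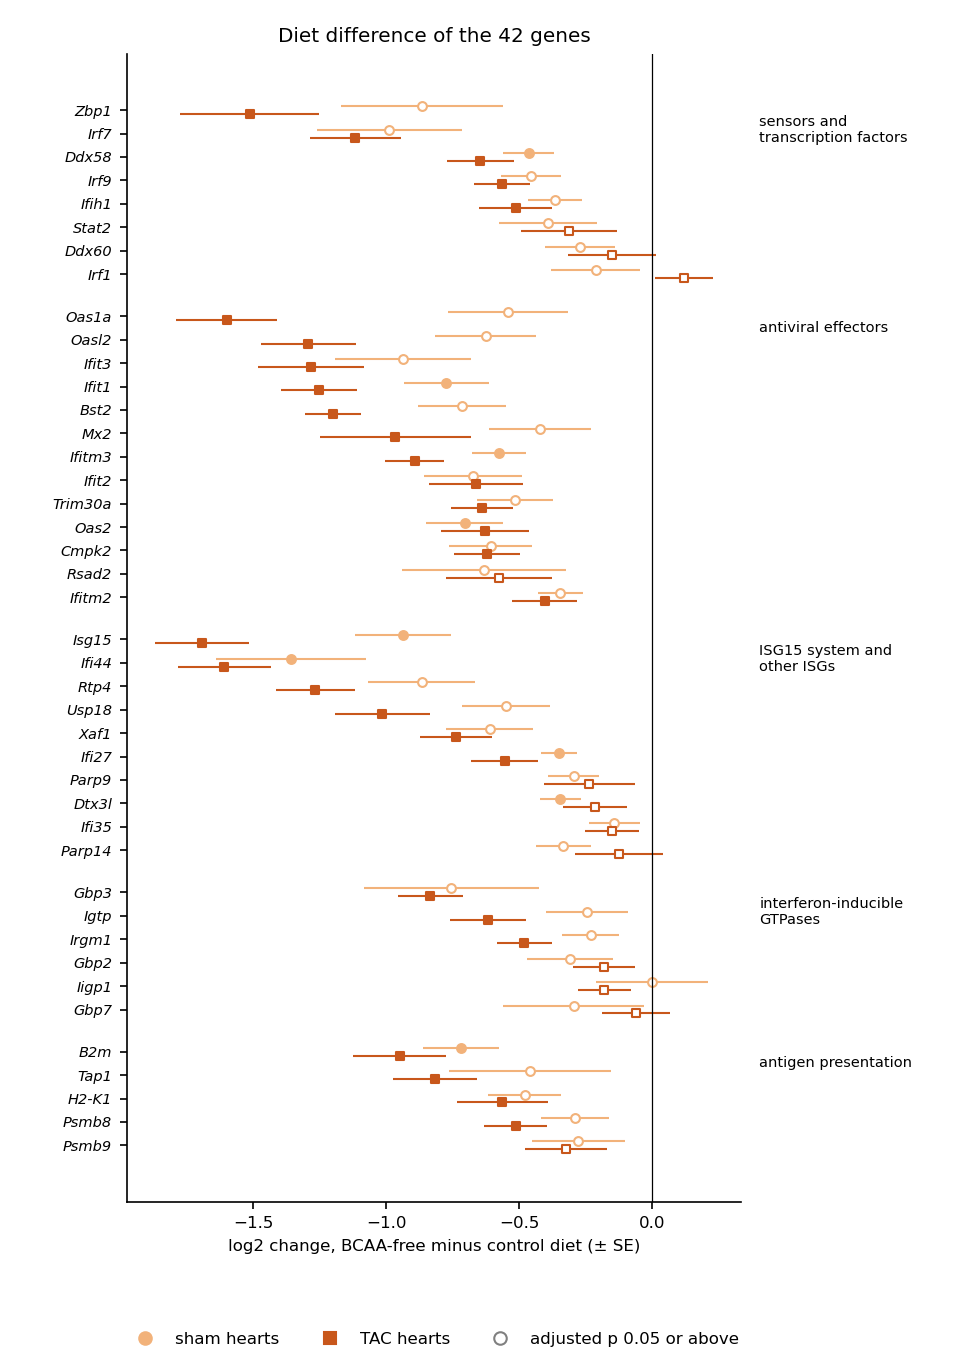
Log2 difference between the BCAA-free and the control diet, with its SE, for each of the 42 genes in sham hearts (circles) and TAC hearts (squares). Filled symbols have an adjusted p below 0.05. All circles lie below 0, that of Iigp1 next to it, and Irf1 is the gene whose square lies above it.

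TAC on the control diet raised 7 of the 42 genes and lowered 0, where 9.17% of 18305 genes tested rose and 5.64% fell. The 7 were the nucleic acid sensor Zbp1 (1.19), Oas1a (1.02), Isg15 (0.99), Oasl2 (0.91), Ifit1 (0.73), Usp18 (0.72) and Ifitm3 (0.60). The median of the 42 was 0.29, beside -0.018 over all genes, and 16 genes were higher without overlap of the groups, against 18.5% of all genes, with 16.3% lower. Without control diet sham 1, sham 2, TAC 2 or TAC 3 the count became 3, 2, 3 and 11, and Isg15 and Ifitm3 were called whichever library was left out. Of 12 macrophage markers 7 rose as well, from a sum of 18833 to 24042 to one of 33625 to 36587 normalized reads, and their part was not tested. The comparison shares the control diet sham libraries with the diet comparison in sham hearts and the control diet TAC libraries with that in TAC hearts, so the values of these comparisons are not independent.

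On the BCAA-free diet, TAC went with changes in 3 genes. Irf7 rose by 0.43 and Ifitm2 by 0.28, while the GTPase Iigp1 had a change of -0.45, and of 17611 genes tested 3.31% rose and 4.41% fell. The median of the 42 was 0.14, beside 0.006 over all genes, and groups did not overlap in 10 genes that were higher and 1 that was lower, against 13.4% and 14.7% of all genes. Without BCAA-free sham 2, sham 3, TAC 1 or TAC 3 only Iigp1 was called, and without both TAC libraries rich in structured RNAs 0 were called, with a single TAC library left, assumed to vary like the sham libraries, and adjusted p-values of 0.405 for Irf7, 0.453 for Ifitm2 and 0.171 for Iigp1.

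The 12 libraries together gave a test of whether TAC acted differently on each diet. None of the 42 genes was called by limma, where 0.503% of 17493 genes were called lower and 0.171% higher, and 0 were called by edgeR. An unadjusted limma p below 0.05 was found for 4 of the 42 and for 2564 of the 17493 genes. The estimate was negative, that is, a lower response to TAC on the BCAA-free diet, for 31 of 42 and for 8308 of the 17493. Its median was -0.14 for the 42, beside 0.016 over all genes. Oas1a had the lowest p, with a difference of -1.06 ± 0.31 (SE, adjusted p = 0.124). DESeq2, which called 3.37% of all genes lower and 1.75% higher, called it (adjusted p = 0.0301), and over 19 alternatives its adjusted p ran from 0.0301 to 0.31. Isg15 followed with -0.76 ± 0.27 (SE, adjusted p = 0.19), then Bst2 and Oasl2.

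Among the antiviral effectors, 12 of 13 fell with the BCAA-free diet in TAC hearts and 3 in sham hearts, and 4 rose with TAC on the control diet. For this and the other roles, the shares over all genes in these comparisons were 10.5% lower, 2.27% lower and 9.17% higher. Bst2 codes for tetherin, which holds budding virus particles at the cell surface (chromosome 8, 71534255 to 71537456). It was at 1774, 1243 and 2056 normalized reads in control diet sham, 2385, 2316 and 2303 in control diet TAC, 994, 1004 and 1029 in BCAA-free sham and 1136, 921 and 991 in BCAA-free TAC libraries. The control diet TAC libraries lay close together and above all others, and both BCAA-free groups lay below both control diet groups. The diet difference in TAC hearts was -1.20 ± 0.11 (SE, adjusted p = 0.000307), and in sham hearts it was -0.72 ± 0.17 (SE, adjusted p = 0.0607). Without control diet sham 2, its lowest control diet library, the latter had an adjusted p of 0.000565.

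Ifit1 and Ifit3 bind foreign RNA and stop its translation, and both lie on chromosome 19 (Ifit1 at 34640871 to 34650009). Ifit1 had 574, 426 and 544 normalized reads in control diet sham, 720.2, 1006 and 856 in control diet TAC, 326, 241 and 339 in BCAA-free sham and 359, 347 and 362 in BCAA-free TAC libraries. All 6 control diet libraries were above all 6 BCAA-free libraries, and the 3 BCAA-free TAC libraries differed little. The change with diet was -1.25 ± 0.14 (SE, adjusted p = 0.000735) in TAC and -0.77 ± 0.16 (SE, adjusted p = 0.0306) in sham hearts, and with TAC on the control diet 0.73 ± 0.17 (SE, adjusted p = 0.0192). Both of the latter calls depended on single libraries, with adjusted p-values of up to 0.114 for diet in sham hearts (without control diet sham 3) and 0.0701 for TAC (without control diet sham 2).

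Ifit3 had 1036, 667 and 1219.96 normalized reads in control diet sham, 1287, 2095 and 1283 in control diet TAC, 516, 389 and 599.7 in BCAA-free sham and 734, 517 and 623 in BCAA-free TAC libraries. Control diet TAC 2 was far above the other libraries, and control diet sham 2 was below BCAA-free TAC 1. Its diet difference was -1.28 ± 0.20 (SE, adjusted p = 0.00292) in TAC hearts and -0.94 ± 0.26 (SE, adjusted p = 0.105) in sham hearts. Ifit3 has a near-identical copy, Ifit3b, and reads of the pair may have been split. Ifit2, of the same family, fell by 0.66 in TAC hearts, with an adjusted p of 0.0307 that became 0.129 without BCAA-free TAC 2.

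The oligoadenylate synthetases, which activate the RNA-cutting enzyme RNase L, lie on chromosome 5. Oas1a (chromosome 5, 120896256 to 120907521) was at 198, 124 and 221 normalized reads in control diet sham, 298, 400.00 and 389.8 in control diet TAC, 132, 99.7 and 133 in BCAA-free sham and 131, 99.1 and 126 in BCAA-free TAC libraries. The control diet TAC libraries stood alone above the other 3 groups, and control diet sham 2 fell within the range of the BCAA-free libraries. Oas1a fell by 1.60 with diet in TAC hearts (SE 0.19, adjusted p = 0.000863) and rose by 1.02 ± 0.24 (SE, adjusted p = 0.0208) with TAC on the control diet. The rise had an adjusted p of 0.0616 without control diet TAC 2 and also missed the threshold without sham 1 or sham 2, and the sham diet difference of -0.54 did not pass (adjusted p = 0.216).

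Oasl2, a relative that acts on RNA sensing, had 619, 506 and 847 normalized reads in control diet sham, 1161, 1542 and 993 in control diet TAC, 452, 348 and 461 in BCAA-free sham and 431, 467 and 594 in BCAA-free TAC libraries. Again the 3 control diet TAC libraries were the highest of the 12. It fell by 1.29 with diet in TAC hearts (SE 0.18, adjusted p = 0.00173) and rose with TAC on the control diet by 0.91 ± 0.21 (SE, adjusted p = 0.0217), the latter call being lost without control diet sham 1 (adjusted p = 0.0806), sham 2, TAC 1 or TAC 2. Oas2 fell in both diet comparisons, by 0.63 in TAC and 0.71 in sham hearts. In TAC hearts its adjusted p was 0.0291, and it passed in 1 of 6 fits with a library left out, 0.0911 being the highest value (without BCAA-free TAC 1). Oas1a has a close copy, Oas1g, whose reads may be mixed with its own.

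Ifitm3 and Ifitm2 are small membrane proteins that keep viruses from fusing with the cell, and after B2m they had the highest levels per kilobase. Ifitm3 (chromosome 7, 141009586 to 141010770) had 5472, 4149 and 5185 normalized reads in control diet sham, 7189.7, 7422 and 7899 in control diet TAC, 3053, 3461 and 3381 in BCAA-free sham and 4501, 3502 and 4127 in BCAA-free TAC libraries. The control diet TAC libraries were above all others and control diet sham 2 was below BCAA-free TAC 1. The diet difference was -0.89 ± 0.11 (SE, adjusted p = 0.00113) in TAC and -0.58 ± 0.10 (SE, adjusted p = 0.02) in sham hearts, and the rise with TAC on the control diet was 0.60 ± 0.12 (SE, adjusted p = 0.0126). The sham call was lost without control diet sham 3 (adjusted p = 0.0888) or any 1 BCAA-free sham library.

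Ifitm2 had 3893, 3105 and 3438 normalized reads in control diet sham, 5154, 4168 and 4048 in control diet TAC, 2565, 2744 and 2889 in BCAA-free sham and 3711, 3024 and 3310.1 in BCAA-free TAC libraries. The order of the groups was that of Ifitm3, with smaller distances between them. Its fall with diet in TAC hearts, -0.40 ± 0.12 (SE, adjusted p = 0.0492), was close to the threshold, passed in 1 of 6 fits with a library left out and was not called by edgeR (adjusted p = 0.0519). Ifitm2 and Ifitm3 have similar sequences and reads of either may be counted for the other. Trim30a, a ubiquitin ligase, and the mitochondrial nucleotide kinase Cmpk2 fell by 0.64 and 0.62 in TAC hearts. The fall of Cmpk2 had an adjusted p of 0.053 without BCAA-free TAC 2. Rsad2, the neighbour of Cmpk2 and the source of viperin, was the effector that did not pass (a change of -0.58, adjusted p = 0.0757), although its groups did not overlap, and passed without control diet TAC 3 (adjusted p = 0.00577). Mx2, annotated as a polymorphic pseudogene, fell by 0.97, and lost its call in 5 of 6 fits with a library left out, with an adjusted p of 0.158 without BCAA-free TAC 3.

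**Figure D4:**
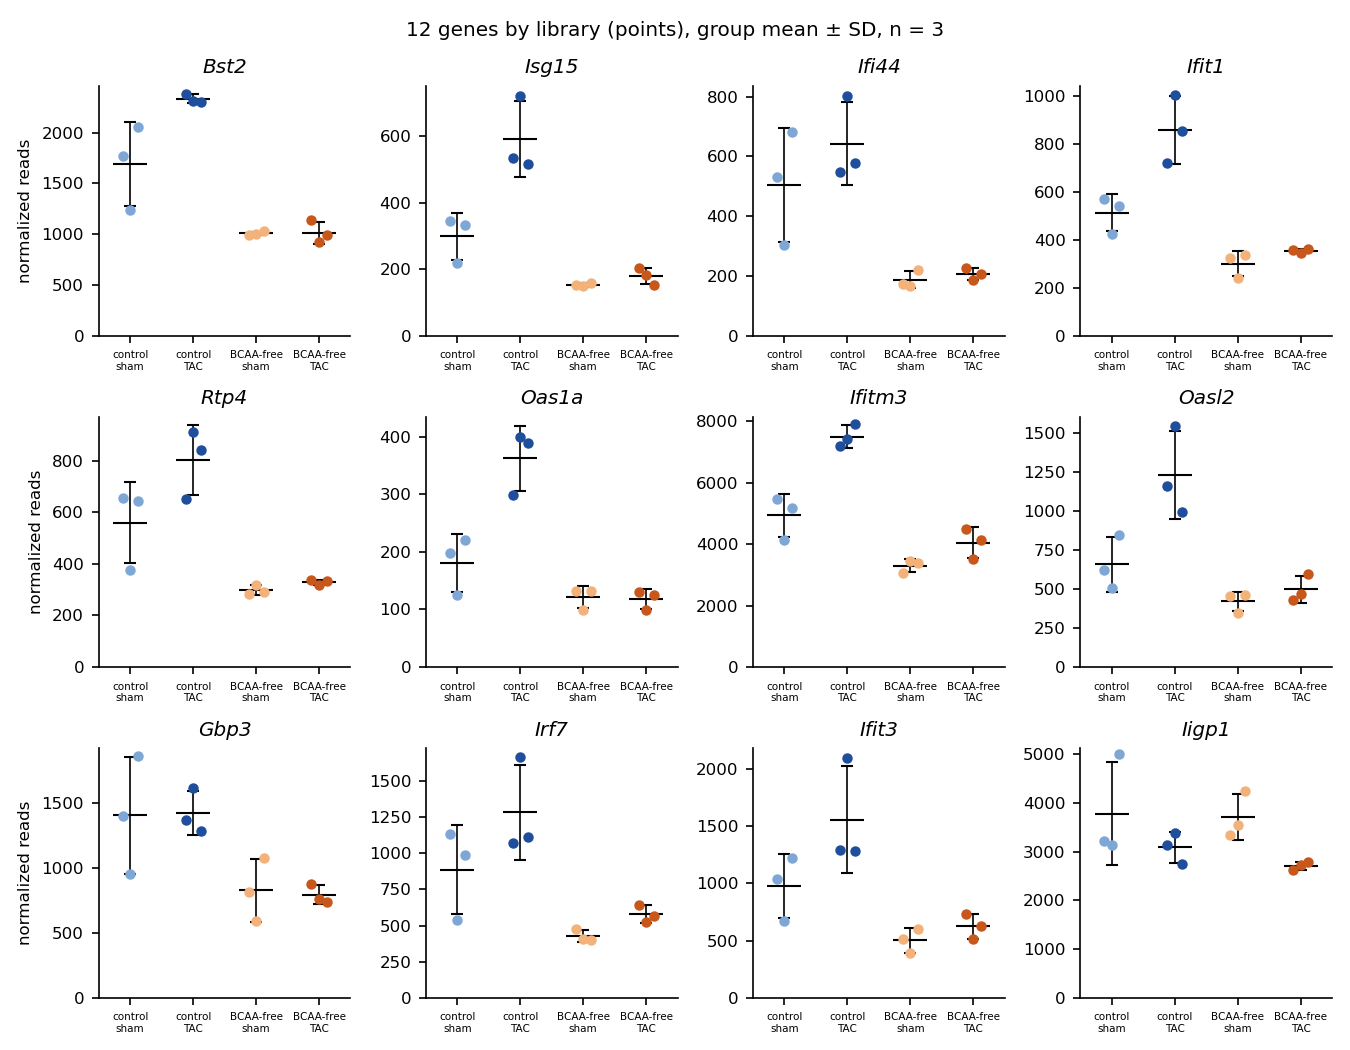
Normalized reads of the 12 called genes with the smallest p-values over the comparisons, 1 point per library, with the group mean ± SD (n = 3). For Bst2, Isg15, Ifit1, Ifi44 and Rtp4 the BCAA-free libraries lie below every control diet library. The other genes shown, Oas1a and Iigp1 among them, lack this order.

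In the group of the ISG15 system, 6 of 10 genes fell with diet in TAC hearts, 4 in sham hearts, and 2 rose with TAC on the control diet. Isg15 (chromosome 4, 156199424 to 156200818) had 347, 219 and 332 normalized reads in control diet sham, 534, 723 and 518 in control diet TAC, 152, 149 and 158 in BCAA-free sham and 204, 185 and 154 in BCAA-free TAC libraries. The BCAA-free sham libraries were within a narrow band and every control diet library exceeded every BCAA-free one. The diet difference was -1.69 ± 0.18 (SE, adjusted p = 0.000529) in TAC and -0.94 ± 0.18 (SE, adjusted p = 0.0244) in sham hearts, and TAC raised it by 0.99 ± 0.21 (SE, adjusted p = 0.0154) on the control diet. In sham hearts the call was lost in 5 of 6 fits with a library left out, with an adjusted p of 0.109 without BCAA-free sham 1.

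Ifi44, an antiviral protein of the cytosol (chromosome 3, 151730922 to 151749960), was at 529.9, 303 and 680.2 normalized reads in control diet sham, 547, 803 and 578 in control diet TAC, 174, 168 and 221 in BCAA-free sham and 228, 186 and 207 in BCAA-free TAC libraries. The control diet sham libraries varied by more than those of the other groups, yet the lowest of them was above the highest BCAA-free library. Among the 42 it had the largest change in sham hearts, -1.36 ± 0.28 (SE, adjusted p = 0.0464), and its change in TAC hearts was -1.61 ± 0.18 (SE, adjusted p = 0.00062). Without BCAA-free sham 1 the sham change had an adjusted p of 0.167. With TAC on the control diet the change of 0.40 did not pass (adjusted p = 0.387).

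Rtp4, a receptor-transporting protein (chromosome 16, 23520291 to 23614222), had 656, 377 and 644 normalized reads in control diet sham, 652, 912 and 842 in control diet TAC, 283, 319 and 291 in BCAA-free sham and 335, 317 and 333 in BCAA-free TAC libraries. The 6 BCAA-free libraries spanned a small range, below the lowest control diet library, which was sham 2. Rtp4 fell by 1.27 with diet in TAC hearts (SE 0.15, adjusted p = 0.000832), and the sham change of -0.87 missed the threshold (adjusted p = 0.0517), passing without control diet sham 2 (adjusted p = 0.000829). Masp1 overlaps it on the other strand. Usp18, which removes ISG15 from proteins, fell by 1.02 in TAC hearts, and rose by 0.72 with TAC on the control diet in a call that was lost without control diet sham 2 (adjusted p = 0.101). Xaf1, a promoter of cell death, fell by 0.74.

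Ifi27 and Ifi35 had the highest levels per kilobase in this group. Ifi27 had 2066, 1982 and 2051 normalized reads in control diet sham, 2588, 2405 and 3293 in control diet TAC, 1666, 1483 and 1641 in BCAA-free sham and 1900.3, 1776 and 1894 in BCAA-free TAC libraries. The sham groups were tight, and the call in sham hearts came from a small change of -0.35 ± 0.068 (SE, adjusted p = 0.0243), beside -0.56 ± 0.13 (SE, adjusted p = 0.0165) in TAC hearts. Both calls were lost with some libraries left out, the highest adjusted p being 0.0841 in sham hearts (without control diet sham 3) and 0.0852 in TAC hearts (without BCAA-free TAC 2). Ifi35 had 1508, 1268 and 1193 normalized reads in control diet sham, 1500.3, 1565 and 1605 in control diet TAC, 1268, 1111 and 1209.6 in BCAA-free sham and 1414, 1504 and 1275 in BCAA-free TAC libraries. Its groups overlapped between the diets and it was called in no comparison. The ADP-ribosyltransferases Parp9 and Parp14 were called in none either, although without control diet TAC 3 Parp9 passed for diet in TAC hearts (adjusted p = 0.00375). Parp9 overlaps Dtx3l, its partner in a ubiquitin ligase, on the other strand. Dtx3l was called in sham hearts, at -0.35 ± 0.077 (SE, adjusted p = 0.0402), and not in TAC hearts (-0.22, adjusted p = 0.254), and the sham call was lost without control diet sham 3 (adjusted p = 0.13) and in 4 further such fits.

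Of the sensors and transcription factors, 5 of 8 fell with diet in TAC hearts, 1 in sham hearts, and 1 rose with TAC on the control diet. Irf7, the factor that amplifies type I interferon production (chromosome 7, 141262706 to 141266481), had 1129, 539 and 989 normalized reads in control diet sham, 1069, 1662 and 1113 in control diet TAC, 478, 407 and 397 in BCAA-free sham and 642, 524 and 569 in BCAA-free TAC libraries. Control diet sham 2 was the single control diet library inside the BCAA-free range, and it lay below BCAA-free TAC 1 and 3. Irf7 fell by 1.12 with diet in TAC hearts (SE 0.17, adjusted p = 0.0027). In sham hearts the change was -0.99 ± 0.27 (SE, adjusted p = 0.109), and 0.000443 was the adjusted p without control diet sham 2. Irf7 overlaps Phrf1 on the other strand.

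Zbp1, which binds left-handed nucleic acid and can start cell death, had the widest range of the 42 genes and the fewest reads. It was at 54.6 to 131 in control diet sham, 174 to 256 in control diet TAC, 42.7 to 55.7 in BCAA-free sham and 58.1 to 102 in BCAA-free TAC libraries. Only the control diet TAC libraries stood clear of the rest. The diet difference in TAC hearts was -1.51 ± 0.26 (SE, adjusted p = 0.00468) and the rise with TAC 1.19 ± 0.31 (SE, adjusted p = 0.0344), the latter with an adjusted p of 0.0989 without control diet TAC 1. The RNA sensors Ddx58 (RIG-I) and Ifih1 (MDA5) fell by 0.65 and 0.51 in TAC hearts. Ddx58 also fell in sham hearts, by 0.46, where its adjusted p was 0.103 without control diet sham 3. The fall of Ifih1 had an adjusted p of 0.143 without BCAA-free TAC 2.

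Irf9 and Stat2, both parts of the ISRE-binding complex, differed in their calls. Irf9, which overlaps Rnf31, fell by 0.56 in TAC hearts (SE 0.11, adjusted p = 0.00694). Stat2 had 1266, 1293 and 1846 normalized reads in control diet sham, 1649.5, 2136 and 1238 in control diet TAC, 1254, 891 and 1201 in BCAA-free sham and 1157, 1471 and 1325 in BCAA-free TAC libraries. Its groups were spread widely, control diet TAC 3 was among the lower libraries, and no comparison was called (-0.31 in TAC hearts, adjusted p = 0.269). Without control diet TAC 3 the latter passed, with an adjusted p of 0.0111.

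Irf1, a factor induced by interferon gamma through a GAS (chromosome 11, 53770014 to 53778374), had 1279, 1027 and 1355 normalized reads in control diet sham, 1024, 1267 and 1115 in control diet TAC, 1105, 824 and 1260.2 in BCAA-free sham and 1189.6, 1281 and 1201 in BCAA-free TAC libraries. The groups overlapped throughout, and the diet difference in TAC hearts was 0.12 ± 0.11 (SE, adjusted p = 0.503), the single positive value of the 42 in that comparison. Irf1 overlaps Gm17334. The helicase Ddx60 was called in no comparison either.

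Of the 6 interferon-inducible GTPases, which attack vacuoles that hold pathogens, 3 fell with diet in TAC hearts and 0 in sham hearts, and none was called for TAC on the control diet. Gbp3 (chromosome 3, 142560026 to 142573209) had 1401, 959 and 1863 normalized reads in control diet sham, 1368, 1618 and 1290.1 in control diet TAC, 819.98, 592 and 1077 in BCAA-free sham and 880.2, 764 and 741 in BCAA-free TAC libraries. The TAC groups did not overlap, while control diet sham 2 and BCAA-free sham 3 overlapped. Its diet difference was -0.83 ± 0.12 (SE, adjusted p = 0.0022) in TAC hearts and -0.76 ± 0.33 (SE, adjusted p = 0.291) in sham hearts. Gbp2, Gbp3 and Gbp7 are related copies on chromosome 3, so reads may be shared. Gbp2 and Gbp7 were not called, at -0.18 and -0.062.

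Iigp1 had the highest level of this group per kilobase and differed from the other genes in its pattern. It was at 3209, 3129 and 5008 normalized reads in control diet sham, 3145, 3377 and 2754 in control diet TAC, 3338, 3554 and 4252 in BCAA-free sham and 2619, 2734 and 2779 in BCAA-free TAC libraries. The 4 lowest libraries were the 3 of BCAA-free TAC and control diet TAC 3, the highest was control diet sham 3, and the diets overlapped in sham and in TAC hearts. Its diet differences were -0.0013 ± 0.21 (SE, adjusted p = 0.999) in sham and -0.18 ± 0.10 (SE, adjusted p = 0.251) in TAC hearts, and its fall with TAC was called on the BCAA-free diet, at -0.45 ± 0.082 (SE, adjusted p = 0.00719), and not on the control diet, at -0.27 ± 0.18 (SE, adjusted p = 0.354). The difference between these 2 responses was -0.18 ± 0.22 (SE, adjusted p = 0.758). Without control diet TAC 3 the diet difference in TAC hearts passed (adjusted p = 0.023).

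Igtp and Irgm1 are immunity-related GTPases like Iigp1. Igtp had 979, 879.5 and 1367 normalized reads in control diet sham, 1252, 1091 and 1463 in control diet TAC, 900.3, 817 and 965 in BCAA-free sham and 943, 777 and 744 in BCAA-free TAC libraries. It fell by 0.62 in TAC hearts (adjusted p = 0.0171) with no overlap, and its sham groups overlapped. Irgm1 fell by 0.48. The call of Igtp was lost without BCAA-free TAC 2 (adjusted p = 0.0852), TAC 3 or control diet TAC 1, and that of Irgm1 without BCAA-free TAC 3 (adjusted p = 0.0722). Without the libraries rich in structured RNAs, which left a single BCAA-free TAC library, the change of Irgm1 was -0.39. Igtp overlaps Irgm2 on the same strand.

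Class I antigen presentation was represented by 5 genes, of which 4 fell with diet in TAC hearts and 1 in sham hearts. B2m, the light chain of every class I molecule (chromosome 2, 122147686 to 122153083), had 17295, 12442 and 17938 normalized reads in control diet sham, 19917, 18724 and 22137 in control diet TAC, 9072, 9105 and 10528 in BCAA-free sham and 14152, 9020.00 and 8892 in BCAA-free TAC libraries. BCAA-free TAC 1 was above control diet sham 2, but within sham and within TAC hearts the diets did not overlap. The diet difference was -0.95 ± 0.17 (SE, adjusted p = 0.00649) in TAC and -0.72 ± 0.14 (SE, adjusted p = 0.0467) in sham hearts. Without control diet TAC 3 the first had an adjusted p of 0.0507, and without BCAA-free sham 1 the second had 0.152. Patl2 overlaps B2m on the other strand.

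H2-K1, a class I heavy chain (chromosome 17, 33996017 to 34000347), had 12028, 10276 and 13932 normalized reads in control diet sham, 12618, 13342 and 13627 in control diet TAC, 8148, 7729 and 10131 in BCAA-free sham and 12003, 8172 and 7162 in BCAA-free TAC libraries. In BCAA-free TAC 1 its level was within the range of the control diet sham libraries, whereas the other two libraries of that group were below every control diet library. Its fall of 0.56 in TAC hearts only just passed (SE 0.17, adjusted p = 0.049), was not called by edgeR (0.0684) and passed in 1 of 6 fits with a library left out. Reads of H2-K1 may be shared with other class I genes. Tap1, which carries peptides into the endoplasmic reticulum, fell by 0.82, and the immunoproteasome subunit Psmb8 by 0.51. The fall of Psmb8 had an adjusted p of 0.0942 without BCAA-free TAC 2. Psmb9, the companion subunit that overlaps Tap1, did not pass (-0.32, adjusted p = 0.185).

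Other genes of the pathway were counted from lists. Over all genes tested, 10.5% fell and 6.23% rose with diet in TAC hearts, and 2.27% fell and 1.27% rose in sham hearts. With TAC on the control diet 9.17% of all genes rose and 5.64% fell. Whether the counts of a list differ from these shares was not tested. Of 16 genes for interferon receptors and signalling, 6 fell and 2 rose with diet in TAC hearts, 1 fell and 1 rose in sham hearts, and 4 rose and 1 fell with TAC on the control diet. The interferon genes Ifnb1, Ifna2, Ifna4, Ifng, Ifnl2 and Ifnl3 were not analysed here. The signalling inhibitor Socs3 changed by -1.20 with diet in TAC hearts, the myeloid factor Irf8 by -1.04 and Irf5 by -0.74, and the same genes rose with TAC on the control diet by 1.35, 0.69 and 0.80. The lambda receptor chain Ifnlr1 was higher on the BCAA-free diet, by 0.79 in TAC and 0.59 in sham hearts.

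Of 13 upstream genes of nucleic acid sensing, 3 fell with diet in TAC hearts, where 10.5% of all genes did, and 1 in sham hearts, where 2.27% did. With TAC on the control diet 3 rose, beside 9.17% of all genes. Tmem173, which codes for the DNA-sensing adaptor STING, was called in every pairwise comparison, at -1.12 ± 0.15 (SE, adjusted p = 0.00154) and -0.92 ± 0.14 (SE, adjusted p = 0.0105) for diet in TAC and sham hearts, and 0.78 and 0.58 for TAC on the control and the BCAA-free diet. Dhx58 (LGP2) fell by 1.45 and Mb21d1 (cGAS) by 0.84 with diet in TAC hearts, and Myd88 rose by 0.35 with TAC on the control diet.

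Of 60 further interferon-stimulated genes, 23 fell and 2 rose with diet in TAC hearts, with a median of -0.43, and 7 fell and 1 rose in sham hearts, with a median of -0.33. With TAC on the control diet 13 rose and 0 fell. The shares of all genes were 10.5% lower with diet in TAC hearts, 2.27% lower in sham hearts and 9.17% higher with TAC on the control diet. The chemokine Cxcl10 changed by -2.20 with diet in TAC and -1.37 in sham hearts, and Slfn9, Lgals3bp and Ifi27l2a by -2.20, -1.31 and -1.12 in TAC hearts. Of 19 other class I genes 4 fell with diet in TAC hearts and 1 in sham hearts, with H2-D1 at -0.60 and the chaperone Pdia3 at -0.58 in TAC hearts, Psmb10 at -0.29 in sham hearts, and Canx at -0.36 for TAC on the BCAA-free diet.

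Markers of other cell types moved with the diet in TAC hearts too. Of 12 macrophage markers 8 fell there, and their summed level was 33625 to 36587 normalized reads in control diet TAC and 21221 to 27846 in BCAA-free TAC libraries. Fibroblast markers, 5 of 8 fallen, summed to 170406 to 275323 against 77462 to 93142. The 7 lymphocyte markers with values in all libraries summed to 1158 to 1656 against 894 to 919. Of the 9 lymphocyte markers tested only 2 fell, 3 had a positive estimate, and the median change was -0.10. Cardiomyocyte markers, 5 of 8 risen, went the other way, and the sums of 8 endothelial and 8 dendritic cell markers overlapped between these groups. Of the 8 genes listed as dendritic cell markers 3 fell (Bst1, Ccr7 and Flt3), with a median change of -0.77. How far these genes track dendritic cells was not tested, and Flt3 had as few as 5.34 normalized reads in a library. The 42 genes together summed to 91487 to 100399 in control diet TAC and 56555 to 68344 in BCAA-free TAC libraries. The part of these markers in the changes of the 42 genes was not tested.

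In sham hearts the macrophage sums overlapped between the diets, at 18833 to 24042 on the control and 19302 to 21464 on the BCAA-free diet, with Lyve1 higher and C1qc lower among 12. Yet 6 of the 12, Mertk, Fcgr1, Cd68, C1qa, C1qb and C1qc, were lower without overlap of the groups, where 12.9% of all genes were, 1 was higher without overlap, and the median change was -0.25. The 42 genes together did not overlap there, at 65104 to 91558 and 51558 to 61857. Endothelial marker sums did not overlap either, at 69259.7 to 81241 and 60500.2 to 65446, although Cdh5 alone of 8 was called, and nor did fibroblast sums, at 68773 to 82812 and 61467 to 66772, or those of 4 neutrophil markers, at 176 to 343 and 101 to 172. The part of these markers was not tested. With TAC on the control diet 6 of 8 fibroblast markers rose. None of the markers summed was at 0 in any library, but some were near it. The lowest values were 2.04 normalized reads for the neutrophil marker Cxcr2, 5.34 for Flt3 and 5.87 for the lymphocyte marker Gzma. The T cell genes Cd3e, Cd3d, Cd3g and Cd8b1 were not analysed here.

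**Figure D5:**
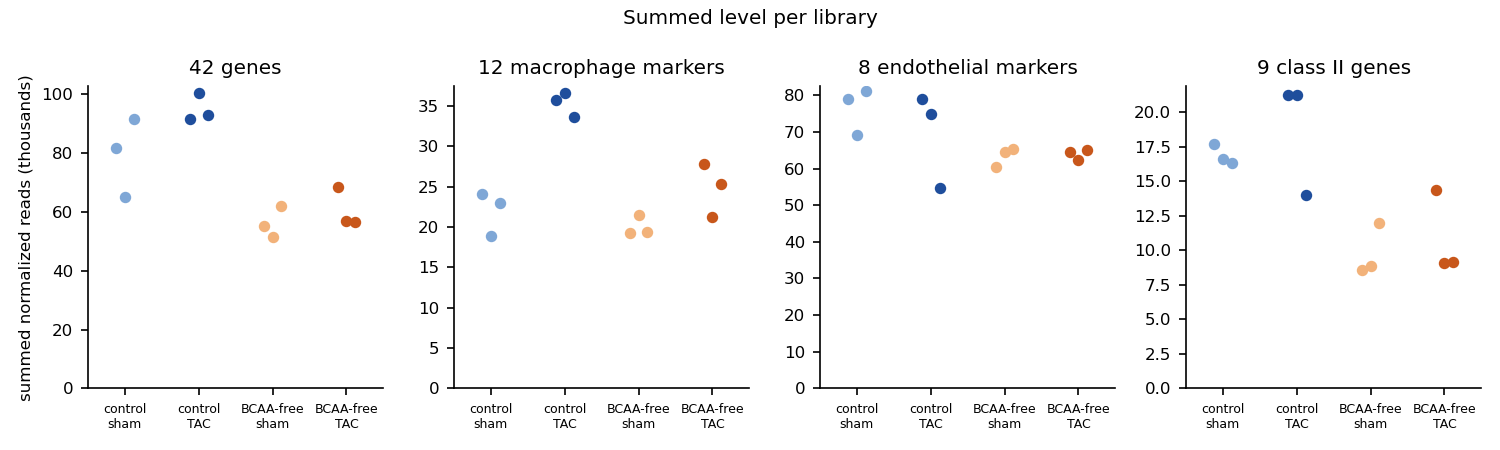
Summed normalized reads per library for the 42 genes, for 12 macrophage markers, 8 endothelial markers and 9 class II genes with values in all libraries. The macrophage sums separate the diets in TAC hearts and overlap in sham hearts, and the 42 genes separate the diets in both.

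In the authors' deposited table for diet in sham hearts, whose p-values come from their own test, 26 of the 42 genes were lower and 0 higher at an adjusted p below 0.05, where 5.34% of all genes with a row were lower and 3.19% higher. In the authors' deposited table for diet in TAC hearts 31 were lower and 0 higher, against 12.7% and 8.21% of all genes. For TAC on the control diet the authors' deposited table has 9 higher and 0 lower, against 11.7% and 8.07%. For TAC on the BCAA-free diet the authors' deposited table has 3 higher and 1 lower, against 4.93% and 5.79%. In sham hearts the authors' deposited table thus passes more of these genes than limma, which called 9, and edgeR, which called 12, all lower, with 2.58% of all genes lower and 1.34% higher.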

How the data were processed

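Per the labels' protocols, polyadenylated heart RNA was sequenced, and per the submitters' processing notes Trimmomatic 0.36, STAR 2.5.2b, Subread 1.5.2, DESeq2 and the builds GRCm38 and mm10 were used. Which tool did what, which annotation release was used and whether reads were counted by strand is not given in the sources used here. Each of the authors' 4 deposited tables compares 2 groups and holds a signal per library, which is the read number divided by a size factor set within that table, besides the authors' log2 fold change and the authors' p-value with its adjusted form. Whole reads were recovered from that signal for 100% of values within 0.0001, and 212169 values present in 2 tables were compared between them with 0 differences. Every gene had at least 61 reads over the 6 libraries of its table, as seen in the values.

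The design had foreseen normalized values, and they were tested as log2(value + 1) with limma 3.58.1 (trend and robust options, R 4.3.3) for genes with a mean of at least 10. A fold change on this scale understates that of low genes. Each pair of groups was fitted alone on 3 against 3 libraries, and the difference of TAC responses on all 12 with 4 group means. P-values were adjusted by Benjamini-Hochberg over all genes tested. On the recovered reads edgeR 4.0.16 (quasi-likelihood) called 2763, 1412, 700, 3059 and 141 genes in the order TAC on the control diet, TAC on the BCAA-free diet, diet in sham hearts, diet in TAC hearts and the difference of responses, where limma called 2710, 1360, 633, 3025 and 118. The fits were tested on simulated data with known changes. Printed levels are reads divided by a factor from a joint scaling of the 12 libraries, and levels between genes were compared per kilobase of exon.

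The 42 genes, the pathway lists and the marker lists were chosen with earlier results of these data known, so no list was tested as a set and no p-value was adjusted over a list alone. Full values are given for the 12 called genes with the smallest p-values and for the 2 genes of each role with the highest level, and from each pathway list up to 4 called genes with the smallest p-values are named. Promoter windows of Parp14, Rtp4, Ifi27, Parp9, Mx2, Iigp1, Oas2, Zbp1 and Usp18 were not used. The alternatives tried were another pseudocount, other filters, edgeR, DESeq2 1.42.0, a replicate block, each library left out, and, chosen after seeing the data, the fit without the 4 libraries rich in structured RNAs.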

Additional observations from a re-analysis of the deposited data

How the results depend on the processing

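With DESeq2 the calls among the 42 genes became 26 for diet in sham hearts and 1 for the difference of TAC responses, and among all genes 1530 and 809. Without the 4 libraries rich in structured RNAs they were 26 of the 42 and 1071 of all genes for diet in sham hearts, 0 and 297 for TAC on the BCAA-free diet, and 1117 of all genes for the difference of responses. Over all genes, replicate numbers did not pair the libraries. Deviations of same-numbered libraries from their group means correlated at -0.17 to 0.042, in 1 of the 12 pairs of libraries above 0 and in none above 0.1. Among the 42 genes, library 2 was the lowest of its group in 38 for control diet sham and in 32 for BCAA-free sham. In control diet TAC, library 2 was the highest in 32. With the replicate block 3 of the 42 were called for TAC on the control diet, and 1 of the 42 and 623 of all genes for TAC on the BCAA-free diet. For diet in sham hearts the block gave 11 of the 42, beside 9 in the main fit, and 276 of all genes, beside 633. For the difference of responses it gave 50 of all genes.

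Leaving out 1 library at a time gave 1354 to 4678 calls among all genes and 2 to 11 among the 42 for TAC on the control diet, 546 to 1257 and 1 to 4 for TAC on the BCAA-free diet, and 50 to 1071 and 0 to 26 for diet in sham hearts. For diet in TAC hearts it gave 1195 to 6025 and 20 to 32, and for the difference of responses 16 to 1755 and 0 throughout. The counts of 4678, 6025 and 1755 all came from the fits without control diet TAC 3. That library was the lowest of its group in 45.4% of all genes and in 22 of the 42. The cause of these changes was not tested, beyond the smaller number of libraries in such fits. Over all alternatives and single genes of the 42, 131 called values lost and 79 gained the threshold, 2772 stayed on their side, and no called value reversed. These totals include the fits without the libraries rich in structured RNAs. In sham hearts that fit is the same as the fit without control diet sham 2, so its values enter the totals again. In comparisons with the BCAA-free TAC group that fit kept a single library of the group. No alternative moved the median of all genes by more than 0.1. With 3 libraries a group, small changes such as those of Ifi35 and Gbp2 cannot be settled, and Zbp1, Mx2 and Oas1a rest on the fewest reads.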

Other observations

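Class II antigen presentation, by which macrophages, dendritic cells and B cells show peptides to helper T cells, moved with the diet as well. Of 9 class II genes tested in sham hearts 5 fell on the BCAA-free diet, where 2.27% of all genes fell, and of 10 tested in TAC hearts 3 fell, where 10.5% of all genes fell. The median changes were -0.72 in sham and -0.70 in TAC hearts. Cd74, the invariant chain, changed by -0.93 ± 0.10 (SE, adjusted p = 0.00363) in sham and -0.84 ± 0.21 (SE, adjusted p = 0.0234) in TAC hearts. The chains H2-Aa and H2-Ab1 fell in sham hearts, by 0.87 and 0.72, and did not pass in TAC hearts, where they were at -0.71 ± 0.25 (SE, adjusted p = 0.0828) and -0.65 ± 0.27 (SE, adjusted p = 0.145) by limma. Ctss, a lysosomal protease that trims the invariant chain and is also abundant in macrophages, fell by 1.17 in TAC and 0.45 in sham hearts, and was the class II gene that rose with TAC on the control diet, by 1.18. Whether the diet difference of these genes differs between sham and TAC hearts was not called for any of them by limma.

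The 9 class II genes with values in all libraries summed to 16342 to 17661 normalized reads in control diet sham and 8531 to 11935 in BCAA-free sham libraries, with no overlap. In TAC hearts the sums were 13979.5 to 21254 on the control and 9102 to 14396 on the BCAA-free diet, where control diet TAC 3 lay below BCAA-free TAC 1. Summed levels of 8 dendritic cell markers overlapped between the diets in both kinds of heart, at 1675 to 1875 and 1334 to 1749 in sham and 1631 to 2025 and 1667 to 1750.00 in TAC hearts. Of these 8 listed genes 3 fell in TAC hearts (Bst1, Ccr7 and Flt3), with a median change of -0.77. In sham hearts 0 of 8 had even an unadjusted limma p below 0.05, with a median of -0.095. How far the 8 track dendritic cells was not tested. Their part in the class II values was not tested.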
